A study of Drosophila melanogaster with 12 samples.

Results

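The 26S proteasome genes of Drosophila melanogaster were examined in Malpighian tubules, the excretory organ of the fly, across 6 genotypes. Members were the genes whose FlyBase symbol begins with Prosalpha, Prosbeta, Rpn or Rpt followed by a digit, and 48 of the 13919 genes in the files met this rule. Of these, 32 encode the canonical particle, with 7 genes for the alpha ring, 7 for the beta ring, 10 for the base and 8 for the lid. The other 16 are paralogs of canonical subunits. The genotypes were the F1 hybrids SU26xSU58, SU26xZI418N and SU58xZI418N and their parental lines ZI418N from Zambia, SU58 from Sweden and SU26 from Sweden. All animals were females aged 6 days, kept at 20 °C, and each genotype had 2 libraries of poly-A RNA that the series' design text calls biological replicates. Each parental genotype is 1 line, so a difference between lines is not a difference between Sweden and Zambia, and the sources used here do not give which parent of a hybrid was the mother.

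The proteasome degrades proteins that carry ubiquitin chains. Its 20S core is a barrel in which alpha rings form the gated outer layers and beta rings hold the proteolytic sites, and its 19S regulatory particle binds the substrate, removes ubiquitin and threads the unfolded chain into the core. The 19S base contains the Rpt ATPases and ubiquitin receptors, and the lid carries the deubiquitinase Rpn11. When proteasome activity is short, cap'n'collar transcription factors, CncC in flies and Nrf1 in mammals, raise the transcription of the subunit genes together.

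The libraries held between 30834175 and 43479929 counts, and the canonical members had between 638 and 8262 counts each in every library. Levels are given as CPM, counts divided by a library size that TMM factors scale so that the bulk of genes stands at the same level in each library. Markers of the tubule's principal cells (5 of 5) and stellate cells (6 of 6) were at 1 CPM or more in every library. The summed level of the principal cell markers was 13248 and 13304 CPM in the SU26 libraries and between 6765 and 9164 CPM in the other 10. The sum was highest in SU26, as were the proteasome genes, through 2 of the 5 markers, Uro (urate oxidase), with 3949 and 4204 CPM in SU26 against 1373 to 2322 CPM elsewhere, and salt, with 6099.5 and 5173 CPM in SU26 against 1911 to 3455 CPM elsewhere. The other 3 did not share this: CAH1 had 73.0 and 68.6 CPM in SU26 against 71.4 to 148 CPM elsewhere, Irk2 had 187 and 181 CPM against 174 to 367 CPM, and Vha55 had 2939.6 and 3678 CPM against 3005 to 3665 CPM. The part of these markers in the proteasome results was not tested. The stellate cell markers summed to between 876 and 1464 CPM, lowest in SU26 replicate 2 and highest in ZI418N replicate 1. Female germ line markers (10 genes) summed to 898 CPM in SU26xZI418N replicate 2 and to between 10.6 and 51.7 CPM in the other libraries, and eggshell markers (11 genes) to 309 CPM in SU58 replicate 1 and at most 30.4 CPM in the others. Fat body, muscle, gut and hemocyte markers summed to 176 to 1123.5, 125 to 209, 3.09 to 12.001 and 1.56 to 10.3 CPM over the libraries. The part of these other markers in the results was likewise not tested, and results are given below without the libraries high in germ line or eggshell markers.

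The canonical subunits were all well expressed. Per kilobase of the transcript length in the files, their mean over the 12 libraries had a median of 64.3 CPM per kb. The medians of the subcomplexes were 70.2 CPM per kb for the beta ring, 66.1 for the alpha ring, 62.8 for the base and 61.3 for the lid. The highest single level was that of the alpha ring subunit Prosalpha2, with 100.1 ± 13.0 CPM per kb (SD, n = 12 libraries), followed by Prosbeta7 with 81.1 ± 11.6, the ATPase Rpt6 with 79.0 ± 11.4 and the catalytic Prosbeta1 with 75.4 ± 13.5 CPM per kb. Prosalpha2 stood above Prosbeta7 by more than 1 SD, and Prosbeta7, Rpt6 and Prosbeta1 lay within 1 SD of each other. At the low end stood Rpn1, the large base scaffold, with 50.9 ± 7.56, Rpn9 of the lid with 49.9 ± 4.40 and Prosalpha1 with 25.3 ± 4.18 CPM per kb. Rpn1 and Rpn9 did not differ beyond their SD, and Prosalpha1 lay apart from both. The SDs in this ranking include the differences between genotypes. They are not the spread of a difference between genes measured in the same libraries, and the ranking was not tested.

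Prosalpha1 has a near-identical copy that is counted beside it. Prosalpha1 (FBgn0263121, CG18495) and Prosalpha1R (FBgn0050382, CG30382) are neighbours on the minus strand of chromosome arm 2R in the Ensembl BDGP6 annotation, at 2R:7827303-7828678 and 2R:7830413-7831771, with 1734 bases between them. Prosalpha1R had 52.5 ± 7.98 CPM per kb and between 1.91 and 2.12 times the CPM of Prosalpha1 in every library. Both genes together had 77.8 CPM per kb, inside the range of the other alpha ring subunits. How the authors' counting treated reads that match both genes is not stated, so the split between them is uncertain.

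The remaining paralogs were nearly silent in the tubule. Apart from Prosalpha1R, only Rpt6R, a paralog of the ATPase Rpt6, passed edgeR's filter on low counts, at 1.31 ± 0.415 CPM per kb, against 79.0 CPM per kb for Rpt6. The other 14 paralogs, among them Prosalpha3T, Prosalpha4T1, Prosalpha4T2 and Prosalpha6T, whose proteins are known from the male germ line, never exceeded 11 counts in a library. Rpn13R and Rpt3R had 44 counts each over the 12 libraries, the most of these 14, and Prosbeta2R1, Rpn12R and Rpt4R had none, for which counting error alone allows up to 3 counts. Testis markers, 3 of 7 of which were at 0 in every library, summed to at most 8.52 CPM, in SU26xZI418N replicate 2. Altogether 34 of the 48 members were tested, all 32 canonical genes and these 2 paralogs, among 9302 genes tested.

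**Figure D1:**
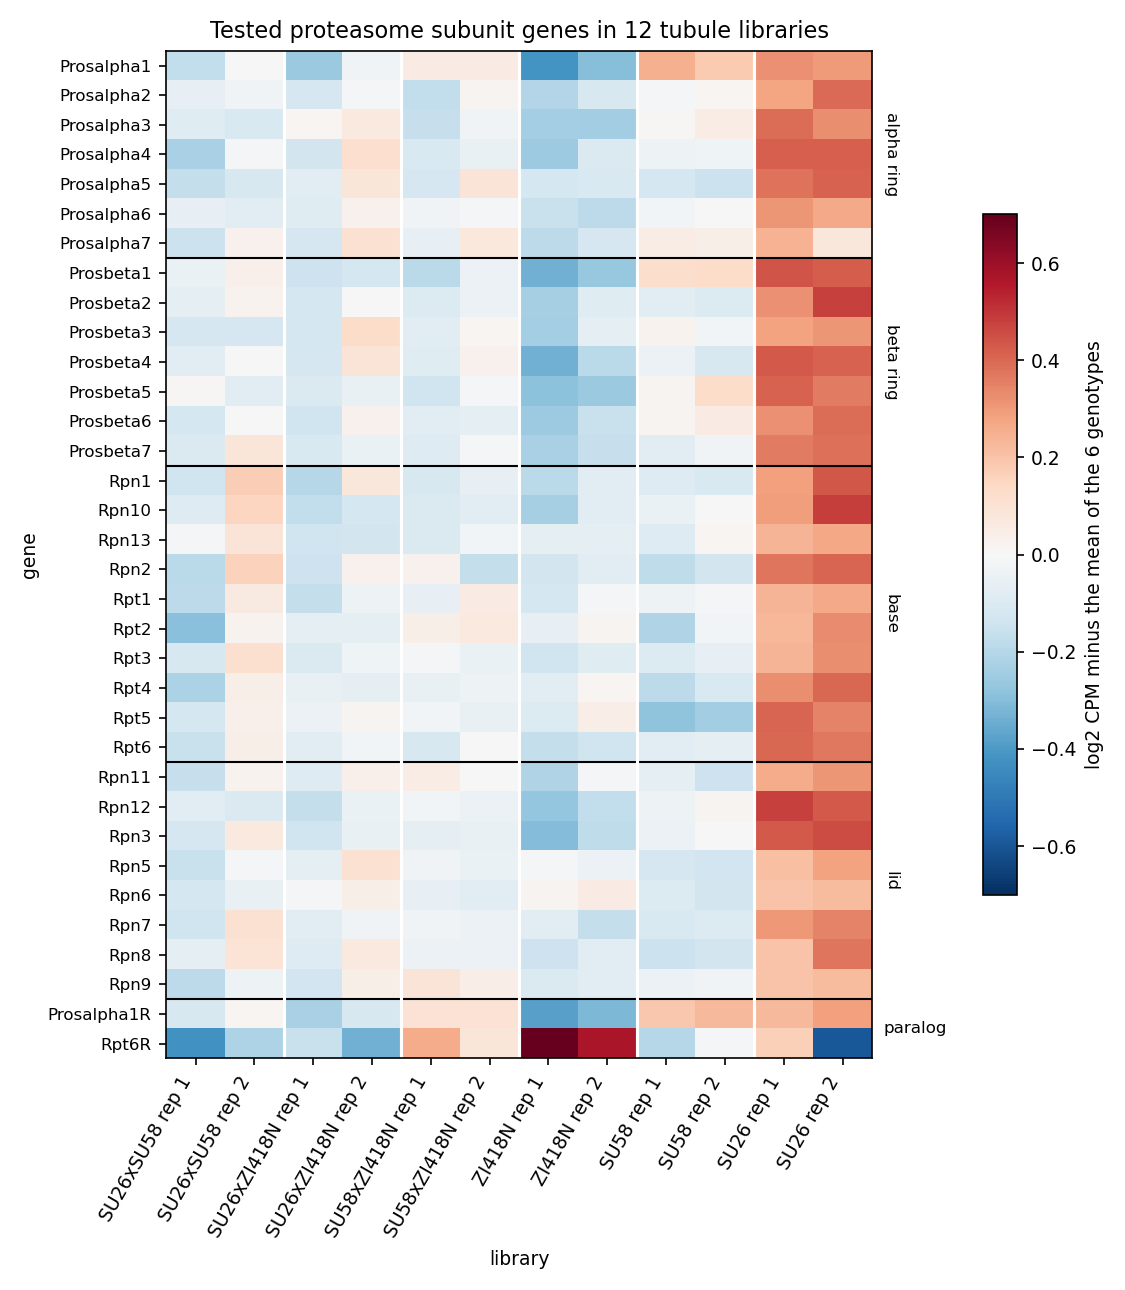
Each row is 1 of the 34 tested proteasome genes and each column 1 of the 12 libraries; colour gives log2 CPM minus the mean of the 6 genotypes for that gene. The SU26 columns on the right are red in nearly every row, while Prosalpha1 and Prosalpha1R are red in SU58 too and blue in ZI418N, and Rpt6R is darkest red in ZI418N, where replicate 1 reaches the end of the colour range.

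The canonical subunit genes had their highest mean levels in SU26. Summed over the 32 canonical genes, the level was 2551 and 2860 CPM in SU26xSU58, 2586 and 2800 in SU26xZI418N, 2677 and 2735 in SU58xZI418N, 2489 and 2613 in ZI418N, 2646 and 2694 in SU58, and 3470 and 3566 CPM in SU26. Both SU26 libraries were above the other 10, whose genotypes overlapped one another except that ZI418N lay below SU58 and SU58xZI418N. The means were 2706 ± 218, 2693 ± 151, 2706 ± 41, 2551 ± 88 and 2670 ± 34 CPM in the first 5 genotypes of that order, between 23.1% and 27.5% below the 3518 ± 68 CPM of SU26 (SD, n = 2 each). The size of this difference depends on the scaling, since the SU26 libraries had the lowest TMM factors, 0.946 and 0.918. As a share of total counts, the canonical genes made up 0.328% and 0.327% in SU26 and 0.254% to 0.305% in the other 10 libraries. In bulk RNA, fewer cells of a type and less RNA per cell cannot be told apart. SU26 had the highest mean of the 6 genotypes for all 32 canonical genes. The lowest mean belonged to ZI418N for 21 of them, to SU58 for 6, to SU26xSU58 for 3, to SU26xZI418N for 2 and to SU58xZI418N for none. The shares of all genes with their highest or lowest mean in these genotypes are not given. Some lowest means lay within the spread of another genotype, such as Rpn11 with 67.8 ± 6.45 CPM in ZI418N and 68.0 ± 2.52 CPM in SU58. Both SU26 libraries exceeded all 10 others in 32 of the 34 tested members, every one but Prosalpha7 and Rpt6R, a pattern chosen after the values were seen; over all tested genes 10.9% showed it. With library totals in place of TMM factors the count was 24 of 34 members and 6.57% of all genes.

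The subcomplexes showed the same order at the top and differed at the bottom. The alpha ring genes summed to 408 and 432 CPM in SU26xSU58, 416 and 463 in SU26xZI418N, 415 and 450 in SU58xZI418N, 385 and 401 in ZI418N, 444 and 446 in SU58, and 561 and 557 CPM in SU26. The beta ring genes summed to 468 and 492, 453 and 491, 457 and 486, 408 and 437, 490 and 497, and 635 and 647 CPM in the same order of genotypes. In both rings ZI418N was the lowest pair, below every other library. The base genes summed to 1006 and 1197, 1029 and 1102, 1083 and 1087, 1023 and 1081, 1023 and 1061, and 1387 and 1445 CPM, and the lid genes to 668 and 739, 687 and 744, 723 and 713, 673 and 694, 689 and 689, and 888 and 916 CPM, again in that order. In base and lid all genotypes but SU26 overlapped with at least 1 other.

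**Figure D2:**
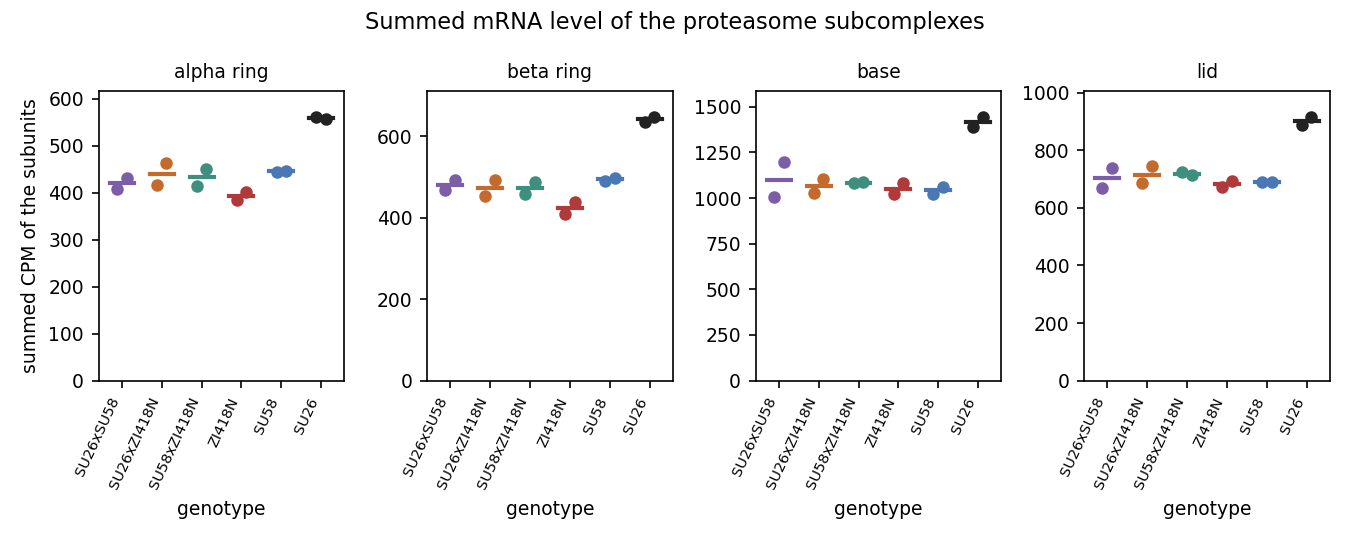
Summed CPM of the 7 alpha ring, 7 beta ring, 10 base and 8 lid subunits; points are the 2 libraries of a genotype, bars their mean, and each axis starts at 0. SU26 lies above the other genotypes in all 4 panels, and ZI418N is lowest in the core panels on the left.

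SU58 and SU26 are both Swedish lines. Of the 34 tested members, 27 were lower in SU58 and none was higher at an adjusted p under 0.05, while over all genes 9.56% were called lower and 8.06% higher (5.98% and 12.8% with library totals in place of TMM factors, where 7 members were lower). The median log2 fold change of the members was -0.38, against 0.01 for all genes tested. The calls covered 9 of 10 base genes, 7 of 8 lid genes, 6 of 7 beta ring genes and 5 of 7 alpha ring genes, with medians of -0.43, -0.41, -0.32 and -0.33. Each p comes from the quasi-likelihood test of edgeR, Benjamini-Hochberg adjusted across all 9302 tested genes. Every comparison against SU26 below uses the same 2 SU26 libraries, so they are not independent of each other.

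In the base, the ATPase Rpt5 (3R:23752876-23754623, BDGP6) had the largest difference of the canonical members. It stood at 83.4 and 92.9 CPM in SU26xSU58, 88.2 and 91.9 in SU26xZI418N, 89.4 and 87.3 in SU58xZI418N, 84.8 and 93.6 in ZI418N, 74.7 and 76.5 in SU58, and 120.2 and 115.25 CPM in SU26. SU58 was the lowest genotype and SU26 the highest, and neither overlapped any other genotype. The fold change of SU58 against SU26 was -0.64 ± 0.08 on the log2 scale (approximate SE, adjusted p = 0.00134).

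The leading gene of the lid was Rpn12. It had 54.1 and 53.3 CPM in SU26xSU58, 50.9 and 55.4 in SU26xZI418N, 56.4 and 55.6 in SU58xZI418N, 47.4 and 50.7 in ZI418N, 55.7 and 57.9 in SU58, and 79.7 and 76.9 CPM in SU26. SU26 stood clear at the top, ZI418N held the lowest pair, and SU26xSU58 and SU26xZI418N lay below SU58xZI418N and SU58. The log2 fold change of SU58 against SU26 was -0.46 ± 0.08 (adjusted p = 0.00397).

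In the core, Prosalpha5 of the alpha ring had 51.9 and 51.0 CPM in SU58, against 73.5 and 75.2 CPM in SU26. The lines did not overlap, and the log2 fold change was -0.53 ± 0.09 (adjusted p = 0.00479). Prosbeta2, which carries the trypsin-like site of the core, had 68.0 and 67.2 CPM in SU58, against 89.7 and 100.01 CPM in SU26. Its log2 fold change was -0.49 ± 0.09 (adjusted p = 0.00651), again without overlap.

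Members that were not called lower in SU58 included both near-identical alpha genes, with log2 fold changes of -0.09 ± 0.10 for Prosalpha1 (adjusted p = 0.592) and -0.05 ± 0.08 for Prosalpha1R (adjusted p = 0.709). Prosalpha7, with -0.12, and Rpt6R, with 0.06, were likewise near 0. Prosbeta3, with -0.29, the ATPase Rpt1, with -0.28, and Rpn9, with -0.24, had estimates on the side of the called members and adjusted p-values between 0.0725 and 0.0888. The 2 libraries of SU58 differed least, with a mean chi-square per gene between their counts of 13.1, against 53.0 to 115.3 in the other genotypes. The fit shares 1 estimate of the spread over all genotypes, and the part of this unequal spread in the calls was not tested. The number of calls depends on single libraries. In a fit without 1 library, the other library of its genotype is assumed to vary like the other genotypes. The number was 1 without SU58 replicate 1, 3 without SU58 replicate 2, 10 without SU26 replicate 2 and 16 without SU26 replicate 1, while the median fold change of the members stayed between -0.41 and -0.34. Prosalpha5 and Prosbeta2 lost the call without either SU58 library (adjusted p = 0.0501 to 0.0659), Rpn12 lost it without SU58 replicate 1 (adjusted p = 0.0598), and Rpt5 kept it without each library (highest adjusted p = 0.0222).

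ZI418N also had lower levels than SU26, with the medians furthest from 0 in the core. In this comparison 30 of the 34 members were lower in ZI418N and none was higher, against 13.1% called lower and 10.9% called higher over all genes (9.98% and 14.0% with library totals, where 21 members were lower and Rpt6R was higher). The median log2 fold change of the members was -0.49, and 0.01 over all genes. All 7 beta ring genes and 6 of 7 alpha ring genes were called, with medians of -0.57 and -0.51, and 9 of 10 base and 7 of 8 lid genes, with medians of -0.40 each. Prosalpha1R was called too (log2 fold change -0.61 ± 0.08, adjusted p = 0.000848), next to Prosalpha1 with -0.67 ± 0.10 (adjusted p = 0.00212).

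Prosbeta1, which carries the caspase-like site, had the largest fall in ZI418N. Its levels were 61.3 and 64.9 CPM in SU26xSU58, 57.3 and 58.2 in SU26xZI418N, 55.5 and 61.6 in SU58xZI418N, 50.1 and 52.7 in ZI418N, 69.1 and 69.2 in SU58, and 86.0 and 84.9 CPM in SU26. The 3 parental lines were separated from each other, and all 6 hybrid libraries lay between ZI418N and SU58. The log2 fold change of ZI418N against SU26 was -0.73 ± 0.08 (adjusted p = 0.000254), a level 39.8% lower.

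Rpn12, with the values given above, was 37.4% lower in ZI418N than in SU26 (log2 fold change -0.68 ± 0.08, adjusted p = 0.000362). In the alpha ring, Prosalpha3 had 59.3 and 59.0 CPM in ZI418N, against 91.7 and 87.7 CPM in SU26, and its log2 fold change was -0.60 ± 0.07 (adjusted p = 0.000521). In the base, the ATPase Rpt6 had 98.0 and 99.7 CPM in ZI418N, against 145 and 142 CPM in SU26, and its log2 fold change was -0.54 ± 0.08 (adjusted p = 0.00211). The exons of Rpt6 overlap those of CG1801 on the opposite strand over 13.0% of their length, the largest overlap of a tested member with any 1 gene, and whether counting used strand is not stated. None of these 4 genes' libraries overlapped between the lines, and all 4 kept the call without each of the 12 libraries.

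**Figure D3:**
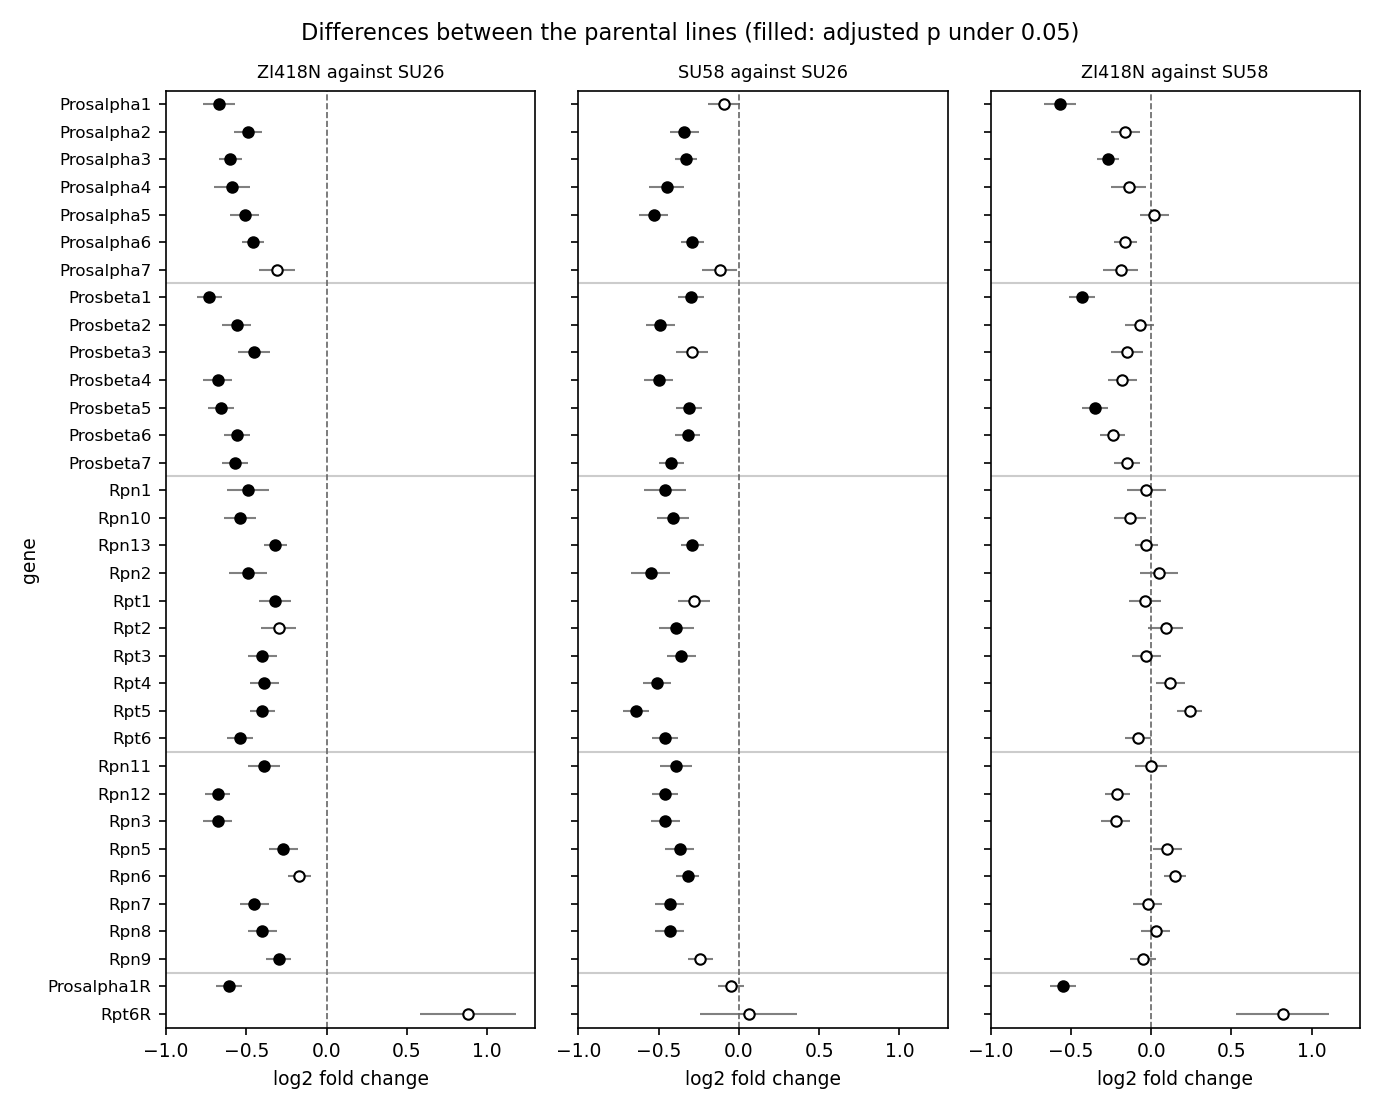
Log2 fold change of each tested member between parental lines, with bars of 1 approximate standard error; filled points passed an adjusted p of 0.05 and grey lines separate alpha ring, beta ring, base, lid and paralogs. Nearly all points lie left of 0 in both comparisons with SU26, while in ZI418N against SU58 the called points belong to the core and Prosalpha1R.

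Among the 4 members not called in ZI418N against SU26, the lid scaffold Rpn6 varied least of the canonical genes over the libraries, with a ratio of 1.28 between the highest and the lowest. It had 111 and 117 CPM in SU26xSU58, 120.3 and 125 in SU26xZI418N, 116 and 114 in SU58xZI418N, 123 and 126 in ZI418N, 113 and 110.4 in SU58, and 139 and 140.8 CPM in SU26. SU26 was still the highest pair, but ZI418N had the second highest mean and SU58 the lowest. Its log2 fold change of ZI418N against SU26 was -0.17 ± 0.07 (adjusted p = 0.101), beside -0.32 ± 0.07 for SU58 against SU26 (adjusted p = 0.0125). Rpt2, with -0.30 ± 0.11 (adjusted p = 0.0815), and Prosalpha7, with -0.31 ± 0.11 (adjusted p = 0.0597), missed the threshold. Rpt6R had an estimate in the other direction, 3.29 and 2.71 CPM in ZI418N against 2.05 and 1.21 CPM in SU26. Its log2 fold change of 0.88 ± 0.30 missed the threshold too (adjusted p = 0.0589). The count of 30 calls was 17 without ZI418N replicate 1 and 19 without SU26 replicate 2.

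The comparison of ZI418N with SU58, which does not use SU26 libraries, left few differences. Only 5 of the 34 members were called, all lower in ZI418N, a share of members not far above the 9.33% called lower over all genes (7.58% were called higher). The median log2 fold change was -0.07. The called genes were 2 of 7 alpha ring genes, 2 of 7 beta ring genes and Prosalpha1R, and no base or lid gene was called. The alpha and beta ring medians were -0.16 and -0.18, against -0.03 for the base and -0.01 for the lid, a contrast between subcomplexes for which no test was made.

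The near-identical alpha genes had the largest of these differences. Prosalpha1R had 45.6 and 49.95 CPM in SU26xSU58, 42.3 and 45.8 in SU26xZI418N, 52.9 and 53.0 in SU58xZI418N, 38.0 and 39.7 in ZI418N, 56.3 and 57.8 in SU58, and 57.9 and 60.4 CPM in SU26. Prosalpha1 had 21.5 and 24.3, 20.3 and 23.8, 25.2 and 25.2, 18.1 and 19.7, 28.7 and 27.5, and 30.3 and 29.8 CPM in the same order of genotypes. For both genes the ZI418N pair was the lowest and the Swedish lines stood together at the top, and the ratio of both genes varied little over the libraries, as given above. The log2 fold change of ZI418N against SU58 was -0.55 ± 0.08 for Prosalpha1R (adjusted p = 0.0016) and -0.57 ± 0.10 for Prosalpha1 (adjusted p = 0.00567).

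Of the catalytic subunits, Prosbeta1 was 25.7% lower in ZI418N than in SU58 (log2 fold change -0.43 ± 0.08, adjusted p = 0.00502). Prosbeta5, which carries the chymotrypsin-like site, had 68.8 and 70.1 CPM in ZI418N, against 85.0 and 92.0 CPM in SU58 (log2 fold change -0.35 ± 0.08, adjusted p = 0.015). Prosalpha3 had 59.3 and 59.0 CPM in ZI418N, against 70.4 and 72.6 CPM in SU58 (log2 fold change -0.27 ± 0.07, adjusted p = 0.0322). Prosalpha1R and Prosbeta1 kept the call without each of the 12 libraries. Prosalpha1 lost it without SU58 replicate 1 (adjusted p = 0.0514) or ZI418N replicate 1 (0.0519), Prosbeta5 without SU58 replicate 2 (0.14), ZI418N replicate 1 (0.086) or ZI418N replicate 2 (0.0659), and Prosalpha3 without any one of the 4 libraries of these lines (adjusted p = 0.128 to 0.209). The count of 5 was 2 without ZI418N replicate 1 and 3 without each of the other 3.

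Set against the mean of the 32 canonical genes in its own library, single subunits took different positions in different lines. Differences of log2 level relative to that mean, ZI418N minus SU58, were -0.48 for Prosalpha1, -0.33 for Prosbeta1 and -0.25 for Prosbeta5, and 0.34 for Rpt5 and 0.25 for Rpn6. These are descriptions over 2 libraries a line, without a test. They do not depend on how libraries are scaled, since each value is a ratio within a library. Rpt5 was the gene lowest in SU58 relative to the other subunits, with a difference of -0.26 for SU58 minus SU26.

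The hybrids show how the high level of SU26 appears in offspring with 1 SU26 genome. In SU26xSU58, 17 of 34 members were lower than in SU26 and none was higher, against 2.25% of all genes lower and 2.29% higher (1.32% and 3.01% with library totals). The median log2 fold change was -0.38. The calls comprised 5 of 7 alpha ring, 6 of 7 beta ring, 3 of 10 base and 3 of 8 lid genes. Rpn12 led the lid with a log2 fold change of -0.54 ± 0.08 (adjusted p = 0.00583), and Prosalpha3, with 66.0 and 64.97 CPM in SU26xSU58 against 91.7 and 87.7 CPM in SU26, led the alpha ring (-0.45 ± 0.07, adjusted p = 0.0108). Prosbeta1, with -0.44 ± 0.08 (adjusted p = 0.0149), led the beta ring. Rpt6, with 98.8 and 113 CPM in SU26xSU58 against 145 and 142 CPM in SU26, led the base (-0.44 ± 0.08, adjusted p = 0.0228). The hybrid libraries of these 4 genes did not overlap those of SU26.

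Compared with its other parent, SU26xSU58 showed no called member. Against SU58 the median log2 fold change was 0.00, with 3 members at an unadjusted p under 0.05 in edgeR and no call by DESeq2, while 0.806% of all genes were called in either direction (25 lower and 50 higher, or 0.387% and 0.452% with library totals). Against the mean of its parents no member was called by edgeR, with 0.108% of all genes called. There the median was -0.20, all 34 estimates were below 0, and 20 members had an unadjusted p under 0.05. The members were measured in the same libraries, so these counts are not independent of each other. The share of all genes at that unadjusted p is not given, here or for the other hybrids, so the counts have no background beside them. DESeq2 called 3 members lower than the parents' mean, Prosalpha3 (log2 fold change -0.30, adjusted p = 0.00997), Rpn12 (-0.32, adjusted p = 0.0105) and Prosbeta1 (-0.29, adjusted p = 0.0336). The shares of all genes called are those of edgeR, here and for the other hybrids, and the share called by DESeq2 is not given. DESeq2 called more members in SU26xSU58 against SU26 as well, 27 where edgeR called 17. The mean of SU26xSU58 lay below both parents for 17 members, between them for 17 and above both for none, whereas 21.9% of all genes lay below both parents and 19.8% above both.

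The replicates of this hybrid differed. The median distance of the canonical subunits from the parents' mean was -0.27 in replicate 1 and -0.11 in replicate 2. The 17 calls against SU26 became 1 without SU26 replicate 1, 1 without SU26xSU58 replicate 1, 2 without SU26 replicate 2, 5 without either SU58 library, 8 and 11 without replicate 2 and 1 of SU58xZI418N, and 10 without SU26xSU58 replicate 2. With library totals in place of TMM factors they became 2, and with only SU26xSU58 and SU26 in the fit none was called. Rpn12 kept the call without each library. Prosalpha3 lost it without SU26 replicate 1 or either SU26xSU58 library (adjusted p = 0.0545 to 0.0744), Prosbeta1 without either SU26 library or SU26xSU58 replicate 1 (0.0675 to 0.124), and Rpt6 without either library of SU26 or SU58 or SU26xSU58 replicate 1 (0.0575 to 0.147).

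SU26xZI418N gave a similar picture with more calls. Compared with SU26, 27 of 34 members were lower in the hybrid and none was higher, against 11.5% of all genes lower and 11.2% higher (7.08% and 20.6% with library totals), with a median log2 fold change of -0.40. The calls comprised 6 of 7 alpha ring, 6 of 7 beta ring, 9 of 10 base and 5 of 8 lid genes and Prosalpha1R. Prosbeta1, with -0.56 ± 0.08 (adjusted p = 0.00289), and Rpn12, with -0.56 ± 0.08 (adjusted p = 0.00291), had the lowest p-values and kept the call without each library. Rpn13, a ubiquitin receptor of the base, had 90.5 and 91.3 CPM in SU26xZI418N, against 118 and 120.5 CPM in SU26 (-0.39 ± 0.07, adjusted p = 0.0101). Prosalpha2 had 84.2 and 90.6 CPM in SU26xZI418N, against 111 and 120.3 CPM in SU26 (-0.40 ± 0.09, adjusted p = 0.017). Without SU26 replicate 2 these last 2 genes lost the call (adjusted p = 0.0571 for Rpn13 and 0.104 for Prosalpha2).

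Members not called in SU26xZI418N against SU26 were Prosalpha7, Prosbeta3, Rpt2, Rpn5, Rpn6, Rpn9 and Rpt6R, with log2 fold changes of -0.16, -0.29, -0.34, -0.22, -0.19, -0.26 and -0.08. The 27 calls became 4 without SU26 replicate 2, 13 without SU26 replicate 1 and 17 without SU26xZI418N replicate 1. They became 7 with library totals in place of TMM factors, and none with only SU26xZI418N and SU26 in the fit. In the fits that leave out 1 library, SU26xZI418N replicate 2 among them, the members' median log2 fold change stayed between -0.44 and -0.33. The setting that follows left out 2 libraries, 1 of them from a genotype outside the comparison of SU26xZI418N with SU26. Its counts do not show the part of SU26xZI418N replicate 2 alone. SU26xZI418N replicate 2 is the library with the high germ line markers; leaving out both it and SU58 replicate 1, the library with the high eggshell markers, left 2 calls here, 4 for SU26xSU58 against SU26, 3 for SU58 against SU26 and 2 for ZI418N against SU58, whereas ZI418N against SU26 had 28.

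No member was called in SU26xZI418N against ZI418N, with a median of 0.10, 4 members at an unadjusted p under 0.05 and 1 call by DESeq2 (Prosalpha3, log2 fold change 0.29, adjusted p = 0.0114), and 3.06% of all genes called. Against the mean of its parents edgeR called none, with a median of -0.15 and 9 members at an unadjusted p under 0.05, where 5.0% of all genes were called (159 lower and 306 higher, or 1.09% and 5.25% with library totals). DESeq2 called Rpn13 (-0.23, adjusted p = 0.0139) and Rpn12 (-0.22, adjusted p = 0.0359) lower than that mean. The hybrid mean lay between the parents for 28 members and below both for 6, against 40.7% and 26.0% of all genes.

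**Figure D4:**
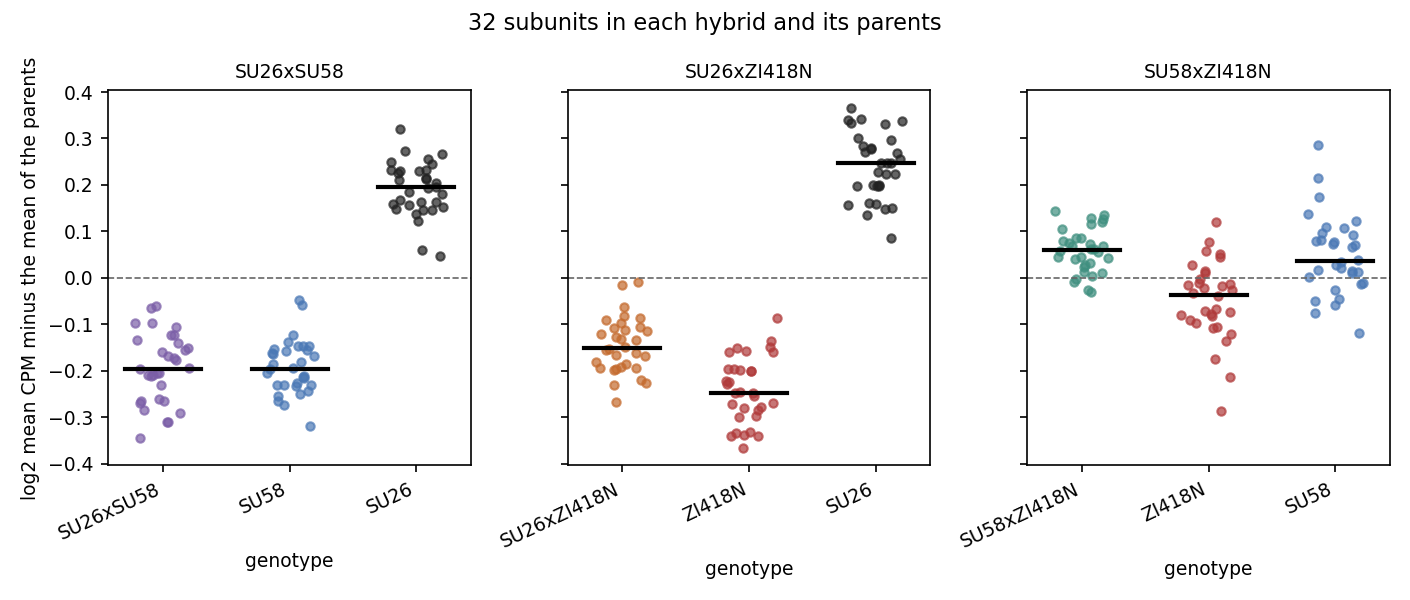
Level of each of the 32 canonical genes in a hybrid and its parents, as log2 mean CPM minus the mean of the parents on that scale; points are genes and bars the median over genes. In the crosses with SU26 the hybrid's points lie below 0, beside those of the other parent, and in SU58xZI418N most lie slightly above 0.

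SU58xZI418N, the hybrid without a SU26 genome, showed few differences from its parents. Against their mean no member was called (0.387% of all genes were), with a median of 0.06, 1 member at an unadjusted p under 0.05 and no call by DESeq2. Against SU58 none was called (2.54% of all genes were), with a median of 0.02, 2 members at an unadjusted p under 0.05 and no call by DESeq2. Against ZI418N the median was 0.10 and 1 member was called, where 3.45% of all genes were. This was Prosalpha1R, higher in the hybrid with 52.9 and 53.0 CPM against 38.0 and 39.7 CPM in ZI418N (log2 fold change 0.45 ± 0.08, adjusted p = 0.0175), and it lost the call without any one of the 4 libraries of this comparison (adjusted p = 0.0737 to 0.141). Its neighbour Prosalpha1 had an estimate of 0.41 ± 0.10 (adjusted p = 0.0735) and was called by DESeq2 (adjusted p = 0.0377). The hybrid mean lay between the parents for 20 members and above both for 14, against 57.1% and 20.8% of all genes.

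The canonical genes lie on 5 chromosome arms, with 4 on 2L, 10 on 2R, 5 on 3L, 9 on 3R and 4 on X. The 30 members called lower in ZI418N than in SU26 come from all of these arms. Exons of 14 tested members overlap those of a gene on the opposite strand, by at most 13.0% of their length with any 1 gene, and none overlaps a gene on the same strand.

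The linked lists below are read beside the shares of all genes called lower, 9.56% in SU58 against SU26, 13.1% in ZI418N against SU26 and 9.33% in ZI418N against SU58. Of 10 tested genes that assemble or regulate the proteasome, 3 were lower in SU58 than in SU26, 4 were lower in ZI418N than in SU26 and 2 were lower in ZI418N than in SU58, and none was higher. The genes lower in SU58 than in SU26 were Pomp, Usp14 and Ubqn, those lower in ZI418N than in SU26 were Sem1, Pomp, ntc and REG, and those lower in ZI418N than in SU58 were Sem1 and ntc. Pomp, the chaperone that matures the core, had 33.2 and 38.8 CPM in SU26xSU58, 34.3 and 35.9 in SU26xZI418N, 33.4 and 36.5 in SU58xZI418N, 32.2 and 32.8 in ZI418N, 34.9 and 34.3 in SU58, and 49.4 and 51.5 CPM in SU26. SU26 stood apart at the top, as it did for the subunits. The log2 fold change was -0.64 ± 0.09 in ZI418N (adjusted p = 0.0015) and -0.55 ± 0.09 in SU58 (adjusted p = 0.00488) against SU26, and the second call was lost without either SU58 library (highest adjusted p = 0.0518).

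Sem1, a small lid component that the symbol rule leaves out, had 28.8 and 30.3 CPM in SU26xSU58, 26.0 and 25.7 in SU26xZI418N, 25.5 and 27.1 in SU58xZI418N, 20.6 and 21.3 in ZI418N, 31.7 and 30.4 in SU58, and 37.1 and 35.0 CPM in SU26. All 3 parental lines were separated, with ZI418N lowest and SU26 highest. Its log2 fold change was -0.78 ± 0.08 in ZI418N against SU26 (adjusted p = 0.000215), -0.57 ± 0.08 in ZI418N against SU58 (adjusted p = 0.00139) and -0.48 ± 0.08 in SU26xZI418N against SU26 (adjusted p = 0.00585), and these calls held without each library. The F-box gene ntc averaged 7.54 ± 0.407 CPM in ZI418N, against 15.3 CPM in SU58 (log2 fold change -1.02 ± 0.17, adjusted p = 0.00378), and kept this call without each library. It was also lower than the 13.2 CPM of SU26 (-0.81 ± 0.17, adjusted p = 0.00904), a call lost without SU26 replicate 2 (adjusted p = 0.0637) or ZI418N replicate 2 (0.0608). Usp14, a deubiquitinase that docks on the proteasome, averaged 99.96 ± 1.58 CPM in SU58, against 127 CPM in SU26 (-0.34 ± 0.07, adjusted p = 0.0125), a call lost without SU26 replicate 2 or either SU58 library (0.0729 to 0.122). The calls of Ubqn (-0.40, adjusted p = 0.0452) and REG (-0.61, adjusted p = 0.037) were lost in 8 and 10 of the 12 fits that leave out a library. PI31, which binds the core particle, had log2 fold changes of 0.01 in SU58 and 0.11 in ZI418N against SU26, neither called. In the hybrids against SU26, 2 of the 10 genes were lower in SU26xSU58 (Pomp and Usp14) and 2 in SU26xZI418N (Sem1 and Pomp). Both calls in SU26xSU58 were lost without either SU26 library, either SU58 library or SU26xSU58 replicate 1 (adjusted p = 0.0544 to 0.167), that of Usp14 also without either SU58xZI418N library (0.0539 and 0.0542), and Pomp lost its call in SU26xZI418N without SU26 replicate 2 (0.0501).

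Of 9 tested genes for ubiquitin supply and the VCP unfoldase, 1 was lower in SU58 than in SU26, 2 in ZI418N than in SU26 (TER94 and Ufd1) and 1 in ZI418N than in SU58 (RpL40), counts near the shares of all genes. TER94, the unfoldase itself, averaged 298 ± 7.36 CPM in SU58 and 297 ± 12.1 CPM in ZI418N, against 393 CPM in SU26, with log2 fold changes of -0.40 ± 0.11 each (adjusted p = 0.0351 in SU58 and 0.0261 in ZI418N). The call in SU58 was lost in 8 of the 12 fits that leave out a library (highest adjusted p = 0.187, without SU58 replicate 2), and the call in ZI418N in 5 (highest 0.151, without ZI418N replicate 1). Those of Ufd1 (-0.30, adjusted p = 0.0225) and RpL40 (-0.38, adjusted p = 0.0196) were lost in 6 and 4 of the 12. The median log2 fold change of this list against SU26 was -0.14 in SU58 and -0.24 in ZI418N, closer to 0 than the medians of the subunits, a difference for which no test was made.

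Genes of the cap'n'collar pathway were called in both directions between the lines. Of 10 tested genes, 3 were lower in SU58 than in SU26 (Gclc, Trxr1 and Keap1). In ZI418N against SU26, GstD1 was lower and Pngl higher, and in ZI418N against SU58, GstD1 was lower and Keap1 and Gclc were higher. Keap1, the inhibitor of CncC, averaged 11.5 ± 2.11 CPM in SU58, against 29.4 CPM in SU26. Its log2 fold change was -1.35 ± 0.31 (adjusted p = 0.0192), and it lost this call without SU26 replicate 1 or either SU58 library (0.0712 to 0.159). The call of Pngl (0.25, adjusted p = 0.043) was lost in 10 of the 12 fits, and those of Keap1 (1.51, adjusted p = 0.0112) and Gclc (0.63, adjusted p = 0.0153) in ZI418N against SU58 in 2 and 4. The factor gene cnc itself had log2 fold changes of -0.25 in SU58 (adjusted p = 0.193) and 0.05 in ZI418N (adjusted p = 0.804) against SU26. Gclc, the catalytic subunit of glutathione synthesis, had 396 and 399 CPM in SU58, against 757 and 783 CPM in SU26. The log2 fold change was -0.95 ± 0.14 (adjusted p = 0.0025), a call kept without each library. GstD1, a glutathione transferase, had 661 and 690.4 CPM in ZI418N, 1269 and 1257 CPM in SU58 and 1343 and 1149.6 CPM in SU26. It was lower in ZI418N than in SU26 (-0.88 ± 0.13, adjusted p = 0.00143) and than in SU58 (-0.90 ± 0.13, adjusted p = 0.00149), both held without each library. In the hybrids against SU26, none of the 10 was called in SU26xSU58, and 4 were lower in SU26xZI418N (Trxr1, Gclc, GstD1 and Gclm). All 4 of these calls were lost without SU26xZI418N replicate 2, the library with the high germ line markers (adjusted p = 0.0578 to 0.123). Without SU26 replicate 2, Trxr1, Gclc and Gclm lost theirs (0.0647 to 0.142), and without SU26 replicate 1, Gclc and GstD1 (0.0566 and 0.0958).

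**Figure D5:**
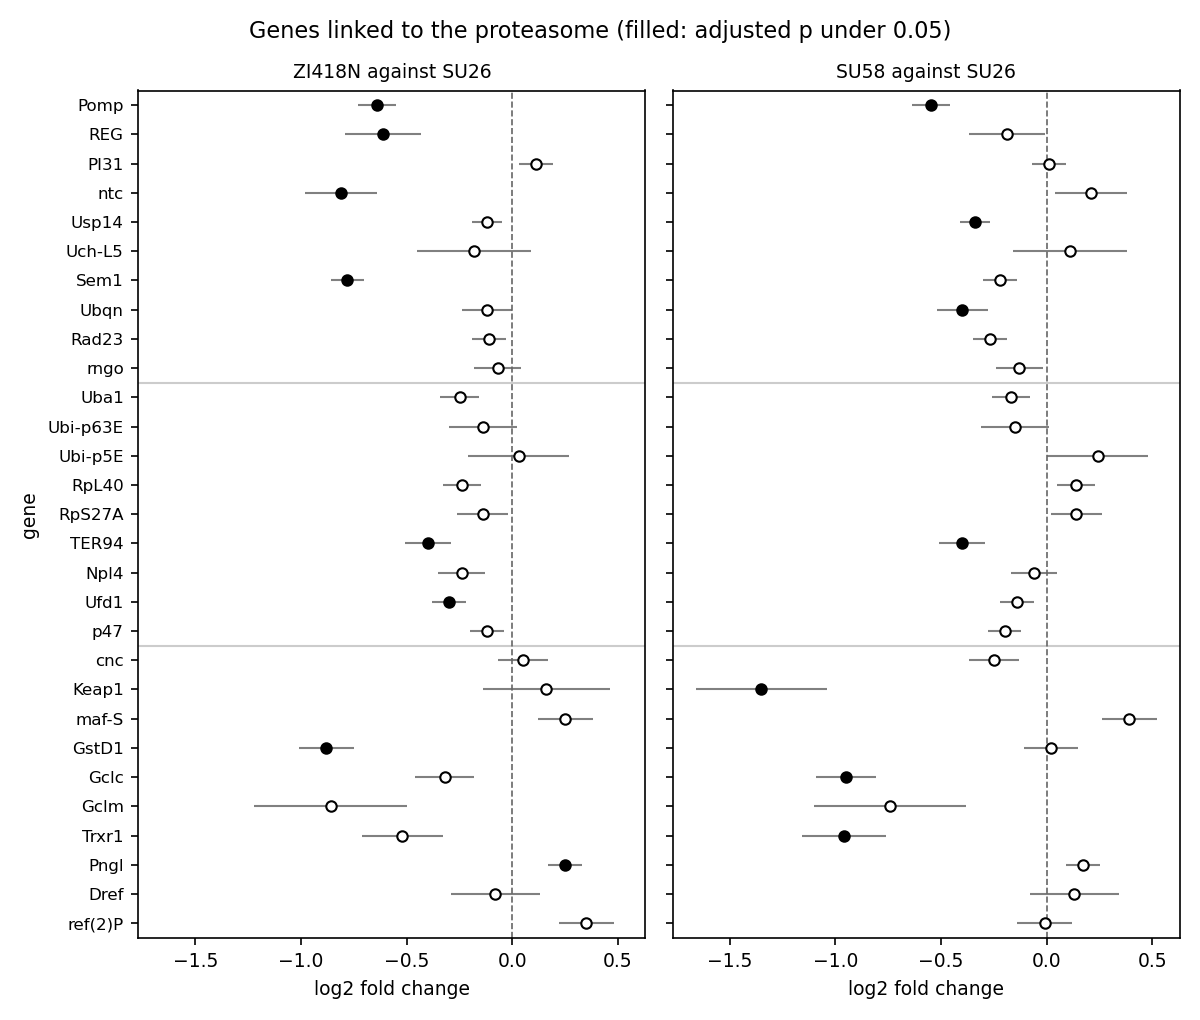
Log2 fold change against SU26, with bars of 1 approximate standard error, for the linked genes of proteasome assembly and regulation (top), ubiquitin supply and VCP (middle) and the cap'n'collar pathway (bottom); filled points passed an adjusted p of 0.05. Pomp and TER94 are filled in both panels, Sem1 in the ZI418N panel, and the bottom group scatters on both sides of 0.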

How the data were processed

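Poly-A RNA of 12 libraries was sequenced as paired reads, per the labels' protocols. The authors deposited raw counts per gene with gene identifiers and a length, per the file headers; no source used here names the aligner, the counting tool or the build. Names were matched by identifier (13749 genes) or CG number (166). Coordinates are those of Ensembl BDGP6, possibly not the authors' build.

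Counts of all 12 libraries entered 1 edgeR 4.0.16 fit in R 4.3.3 (filterByExpr, TMM, 1 mean per genotype), with the quasi-likelihood test, an adjusted p of 0.05 and 6 residual degrees of freedom. The approximate SE was taken from the fold change and its F statistic. The fit was run on simulated counts whose spread between replicates was set below the common estimate in the data. That run does not give the error rate of the calls here. DESeq2 1.42.0 was an alternative, among 20 settings of which 12 each left out 1 library. Named with statistics were, per comparison, the called member of lowest adjusted p in each subcomplex, called members against the majority, uncalled members where 8 or fewer, and up to 3 genes per linked list; other linked genes were named after their values were seen. The members, lists and tests were chosen with earlier results of these data known. No sequence was used here.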

Additional observations from a re-analysis of the deposited data

Results flagged for a closer look

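The canonical subunits lay on different sides of the mean of their parents in different hybrids. Their median distance from that mean on the log2 scale was -0.27 and -0.11 in the libraries of SU26xSU58, -0.20 and -0.11 in those of SU26xZI418N, and 0.03 and 0.08 in those of SU58xZI418N. Both libraries of each hybrid with a SU26 genome lay below the mean of the parents, by more than the pooled SD of library medians, 0.066. Both libraries of the hybrid without one lay above it, by distances near that SD. With library totals in place of TMM factors, the median log2 fold change of the tested members against the mean of the parents was -0.03 in SU26xZI418N, where it was -0.15 with TMM. The median of all genes in this comparison was 0.14 with library totals and 0.02 with TMM, and the members' median lay -0.17 from it in both. The summed levels of the hybrids themselves were close, with 2706 ± 218 CPM in SU26xSU58, 2693 ± 151 in SU26xZI418N and 2706 ± 41 in SU58xZI418N (SD, n = 2 each). The mean distances from the parents' mean differed by -0.24 between SU26xSU58 and SU58xZI418N and by -0.21 between SU26xZI418N and SU58xZI418N. These differences were not tested, and each pair of hybrids shares the libraries of 1 parental line.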

How the results depend on the processing

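Calls of members rest on few libraries. Leaving out 1 library at a time gave 1 to 29 calls for SU58 against SU26, 17 to 32 for ZI418N against SU26, 2 to 5 for ZI418N against SU58, 1 to 20 for SU26xSU58 against SU26, 4 to 27 for SU26xZI418N against SU26, 0 to 1 for SU26xZI418N against ZI418N and 0 to 2 for SU58xZI418N against ZI418N. With library totals in place of TMM factors, calls fell to 7 for SU58 against SU26, 2 for SU26xSU58 against SU26 and 7 for SU26xZI418N against SU26. Under that scaling the median log2 fold change of all genes was 0.15, 0.09 and 0.20 in these comparisons and 0.11 for ZI418N against SU26, and the members' median lay -0.39, -0.39, -0.43 and -0.51 from it, as under TMM. Without both SU58 replicate 1 and SU26xZI418N replicate 2 the counts were 3 for SU58 against SU26, 2 for ZI418N against SU58, 4 for SU26xSU58 against SU26 and 2 for SU26xZI418N against SU26. With only the genotypes of a comparison in the fit there were 0 for SU26xSU58 against SU26, SU26xZI418N against SU26 and SU58xZI418N against ZI418N. DESeq2 called 3 members for SU26xSU58 against the mean of its parents, 27 for SU26xSU58 against SU26, 2 for SU26xZI418N against the mean of its parents, 1 for SU26xZI418N against ZI418N and 2 for SU58xZI418N against ZI418N. The cause was not tested. None of the called proteasome or linked genes reversed direction in any setting; of their 2756 values, 697 lost the call. A fit with the replicate number as a block gave 28 calls for SU58 against SU26, 31 for ZI418N against SU26 and 18 for SU26xSU58 against SU26. The replicate numbers showed no pairing common to all genotypes (15 correlations of deviations, -0.22 to 0.32, 4 of them over 0.1). Whether some genotypes shared a batch was not tested. Adding the counts of Prosalpha1 and Prosalpha1R, chosen after seeing the data, moved no count by more than 1.5 times. The planned scan of promoter motifs was not run. With 2 libraries a genotype, differences smaller than the spread between them were not detectable.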
